A study of Homo sapiens with 6 samples.

Results

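The genes described here are 38 autophagy and lysosome genes, taken by name from the deposited read counts of 23686 genes. All 38 had at least 10 reads in at least 3 of the 6 libraries and all were among the 14582 genes tested. They were measured by RNA sequencing in HEK293 cells, a cell line derived from human embryonic kidney, grown in high-glucose DMEM with serum and carrying green fluorescent protein (GFP) in every sample. The 3 co-culture samples had been grown for 10 h beside other HEK293 cells that carried DAAO (commonly short for D-amino acid oxidase) and produced reactive oxygen species (ROS), with D-alanine at 25 µM. The 3 control samples were GFP-positive HEK293 cells, called wild-type controls. Cells of both groups were sorted for GFP. The labels carry 1 treatment text for all samples, so it is not known whether the controls received D-alanine or had partner cells. Nothing states that the samples of a group came from separate cultures, so p-values measure the spread between these samples, which may be technical.

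Autophagy encloses cell material in a double membrane, the autophagosome, and delivers it to the lysosome for digestion. The ULK kinase complex starts the process, a lipid kinase complex built around BECN1 marks the membrane, ATG2, ATG9 and WIPI proteins supply and shape it, and a conjugation machinery attaches small ATG8 proteins to it. The lysosome is acidified by the V-ATPase proton pump, and many of its genes are switched on by TFEB and TFE3, transcription factors that bind E-boxes in a sequence context known as the CLEAR motif and whose activity is set largely by whether mTORC1 keeps them out of the nucleus. Oxidants are known to act on several of these proteins directly, among them the ion channel MCOLN1 and the ATG4 proteases.

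The libraries held 19091085 to 36250314 gene-assigned reads, so that 1 read was worth 0.0279 to 0.0522 CPM (read counts scaled to library size, with trimmed means of M-values). The HEK293 identity was checked with 8 genes that this line expresses (KRT8, KRT18, VIM, NEFM, NEFL, INA, PAX2 and EYA1), which summed to 1773 to 1840 CPM in the controls and 2144 to 2360 CPM in co-culture. Genes that define blood, endothelium, liver, muscle or fibroblasts (8 genes) summed to 0.365 to 0.606 CPM in the controls and 0.140 to 0.380 CPM in co-culture, with CD3E at 0 reads. The part of these shifts in the results that follow was not tested. No library had a read of DAO, the human gene of the enzyme in the partner cells, and whether the partner cells' DAAO would be counted there is not known. Co-culture libraries 2 and 3 had a median of 0.124% and 0.211% of reads on the unexpected strand of a gene, against 1.57% to 1.75% in the other 4 libraries. The control libraries differed among themselves. Control 1 was the lowest of the 6 libraries for 14 of the 38 genes (36.8%), beside 26.4% of all tested genes. Control 3 was the highest for 19 of the 38 genes (50.0%), beside 21.4% of all tested genes. Of the 38 log2 fold changes between co-culture and control, 25 were negative with all libraries, 23 without control 3 and 29 without control 1.

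Promoters are shown first, because TFEB and TFE3 bind CLEAR-type E-boxes. Which of the 38 genes these factors control in these cells was not tested. RefSeq promoter windows (GRCh38.p14, 250 bases before to 50 after a gene's start) were found for 30 of the 38 genes and not for LAMP2, CTSB, HEXA, ATP6V1A, ATP6V1B2, ATP6V1H, UVRAG and VPS18. The E-box CACGTG, a palindrome, was present in 10 of the 30 genes (33.3%), against 8.77% of all 27305 genes with a window. The longer CLEAR core GTCACGTG, searched on both strands and always holding a CACGTG, was present in 8 of the 30 genes (26.7%), against 2.93% of all genes. The 2 sets are unlike, because the 30 genes were chosen by name and are expressed here. The 27305 genes were not filtered by expression. The shares are therefore a description, and enrichment was not tested. Stretches from before the start are printed 5′ to 3′ on the gene's strand, with CACGTG in capitals. The LAMP1 stretch, chr13:113297039-113297108 on the plus strand, holds 4 of the 6 matches in its window. The others are chr19:7522564-7522623 (plus strand) of MCOLN1, chr20:45891275-45891334 (plus strand) of CTSA, chr11:1763928-1763987 (minus strand) of CTSD and chr16:67481178-67481237 (minus strand) of ATP6V0D1. GABARAPL1, one of the called genes in what follows, is given for comparison at chr12:10212817-10212876 (plus strand), and its whole window held no match.
LAMP1: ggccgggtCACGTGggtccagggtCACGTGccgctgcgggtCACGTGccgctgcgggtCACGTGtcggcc
MCOLN1: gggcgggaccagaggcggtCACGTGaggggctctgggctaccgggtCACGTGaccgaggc
CTSA: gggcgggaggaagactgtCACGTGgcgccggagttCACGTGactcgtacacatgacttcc
CTSD: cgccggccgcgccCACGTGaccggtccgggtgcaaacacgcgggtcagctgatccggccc
ATP6V0D1: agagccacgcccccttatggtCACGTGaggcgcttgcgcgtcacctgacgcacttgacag
GABARAPL1: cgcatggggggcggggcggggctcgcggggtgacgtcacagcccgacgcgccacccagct

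The comparison asked how these genes differed between cells grown beside ROS-producing cells and controls. GABARAPL1, an ATG8 protein, and HEXA, the alpha subunit of the lysosomal enzyme beta-hexosaminidase, rose in co-culture, and no other of the 38 genes passed the test in edgeR (quasi-likelihood test, Benjamini-Hochberg adjustment over all 14582 genes, threshold 0.05). These 2 genes are 5.26% of the 38, beside 4.83% of all tested genes called in either direction, so the share was near the background. By direction, 2 of 38 were called higher beside 2.66% of all genes and 0 lower beside 2.17%. DESeq2 and limma-voom called the same 2 genes and 0 lower, beside 7.52% of the 13732 genes with an adjusted p in DESeq2 and 4.63% of all tested genes in limma-voom. Scaled to total counts instead of trimmed means, 1 gene was called higher (HEXA) and 2 lower (ATG13 and ATG16L1), which is 7.89% beside 6.05% of all genes. Over all genes the calls were then 310 higher and 572 lower, against 388 and 316. In bulk samples, fewer cells that express a gene and less RNA per cell cannot be told apart.

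The fold changes of the whole group were small. The median log2 fold change (co-culture against control) was -0.06 over the 38 genes and -0.00 over all tested genes. The median absolute value was 0.07 against 0.13. These sets differ in precision, with SEs up to 0.18 among the 38 genes and up to 1.38 among all tested genes. The part of that in the smaller median was not tested. Of the 38 genes, 13 had a positive and 25 a negative log2 fold change, while 49.6% of all tested genes were positive. An unadjusted p under 0.05 was reached by 8 genes, 2 higher and 6 lower, which is 21.1% beside 23.2% of all genes. The groups did not overlap for 9 genes, 3 higher and 6 lower, which is 23.7% beside 29.3% of all genes. The 95% interval of the fold change, without adjustment for the number of genes, lay within a 1.5-fold change in either direction for 37 of the 38 genes. CTSF was the exception. TFE3, ULK1 and VPS11, all near 0, changed sign with total counts as scaling.

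**Figure D1:**
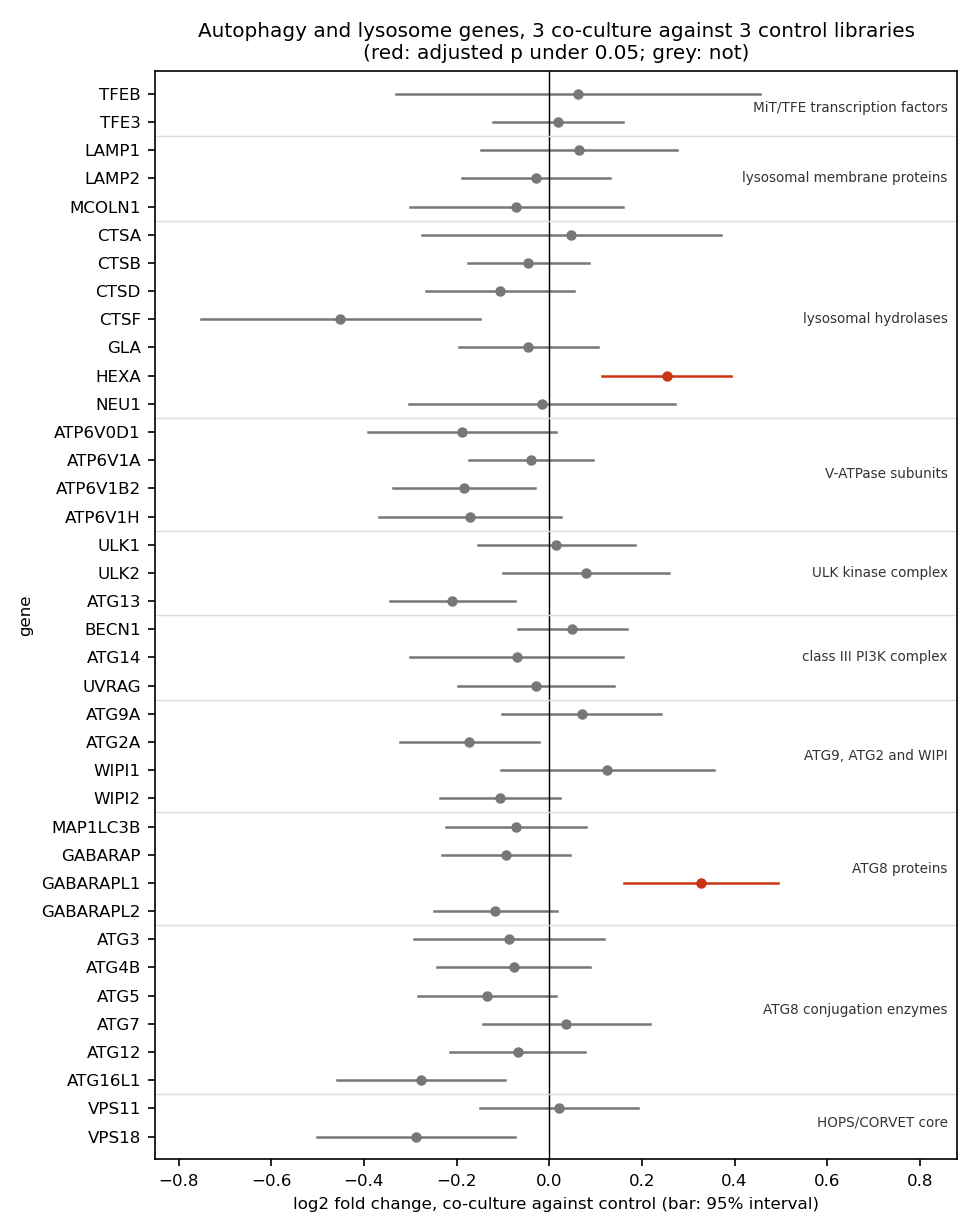
Log2 fold change (x axis) of each of the 38 genes (y axis, grouped by role), with its 95% interval as a bar. GABARAPL1 (0.33) and HEXA (0.25), in red, had an adjusted p under 0.05, and the other 36 genes, in grey, ran from -0.45 (CTSF) to 0.13 (WIPI1).

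The transcription factors TFEB and TFE3 did not pass the test. TFEB was the gene with the lowest level per kilobase of transcript among the 38, at 7.38, 5.01 and 4.83 CPM in controls 1, 2 and 3 and 5.65, 5.89 and 6.31 CPM in co-culture libraries 1, 2 and 3. Its controls spread on both sides of the co-culture libraries, with control 1 highest. The log2 fold change was 0.06 (SE 0.18, 95% interval -0.33 to 0.46, edgeR adjusted p 0.865), and without control 1 it was 0.29 (edgeR adjusted p 0.160). TFE3, a paralog of TFEB, was measured at 72.0, 69.6 and 71.1 CPM in the controls and 67.1, 72.7 and 75.5 CPM in co-culture. Its groups overlapped, with a log2 fold change of 0.02 (edgeR adjusted p 0.887, SE 0.06).

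The lysosomal membrane proteins were also not called. LAMP1, a heavily glycosylated protein of the lysosomal limiting membrane, had 113, 142 and 149 CPM in the controls and 140, 135 and 149 CPM in co-culture. Control 1 alone was low, and the other 5 libraries lay close together. The log2 fold change of LAMP1 was 0.06 (edgeR adjusted p 0.725, SE 0.10), and it was -0.05 without control 1 (edgeR adjusted p 0.564). LAMP2, which takes part in fusion with autophagosomes and in chaperone-mediated autophagy, stood at 264 ± 25.4 CPM in the controls and 259 ± 2.74 CPM in co-culture (SD, n = 3 each). MCOLN1, the lysosomal calcium channel, had 15.7, 17.5 and 18.6 CPM in the controls and 15.0, 16.0 and 18.2 CPM in co-culture. Its groups overlapped over nearly their whole range, and its log2 fold change was -0.07 (edgeR adjusted p 0.723, SE 0.10).

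Of the 7 lysosomal hydrolases, 1 rose and 0 fell in edgeR, where 1 more had an unadjusted p under 0.05. HEXA had 103, 106 and 116 CPM in the controls and 124, 130 and 133 CPM in co-culture. Each co-culture library was above each control. HEXA rose from 108 ± 6.71 to 129 ± 4.92 CPM (SD, n = 3 each), or by 0.25 on the log2 scale (SE 0.06, 95% interval 0.11 to 0.39, edgeR adjusted p 0.0466). The call of HEXA was lost without co-culture library 1, 2 or 3 or control 2 (log2 fold changes from 0.23 to 0.29, edgeR adjusted p from 0.112 to 0.198) and kept without control 1 or 3 (0.22 and 0.31, edgeR adjusted p 0.00991 and 0.0230).

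CTSF, a cysteine protease and the hydrolase of lowest level per kilobase, had 8.74, 7.77 and 8.63 CPM in the controls and 5.30, 6.65 and 6.40 CPM in co-culture. Its groups did not overlap, and its log2 fold change of -0.45 was the largest of the 38 in size but did not pass (SE 0.14, 95% interval -0.75 to -0.15, edgeR adjusted p 0.0826). CTSD, the main aspartic protease of the lysosome, had 161, 181 and 186 CPM in the controls and 152, 165 and 173 CPM in co-culture, with overlapping groups and a log2 fold change of -0.11 (edgeR adjusted p 0.411, SE 0.07). The cysteine protease CTSB ranged from 134 to 148 CPM in the controls and from 134 to 139 CPM in co-culture. GLA, the alpha-galactosidase that clears glycosphingolipids, stood at 109 ± 7.96 CPM in the controls and 105 ± 5.07 CPM in co-culture (SD, n = 3 each). CTSA, a carboxypeptidase, and the sialidase NEU1, which it holds in a shared complex, had log2 fold changes of 0.05 and -0.02. Both were low in control 1 alone, CTSA at 43.7 CPM against 60.4 and 68.6 CPM in controls 2 and 3, and NEU1 at 81.8 CPM against 113 and 117 CPM. Without control 1 they were -0.12 for CTSA and -0.16 for NEU1 (edgeR adjusted p 0.236 and 0.0637).

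**Figure D2:**
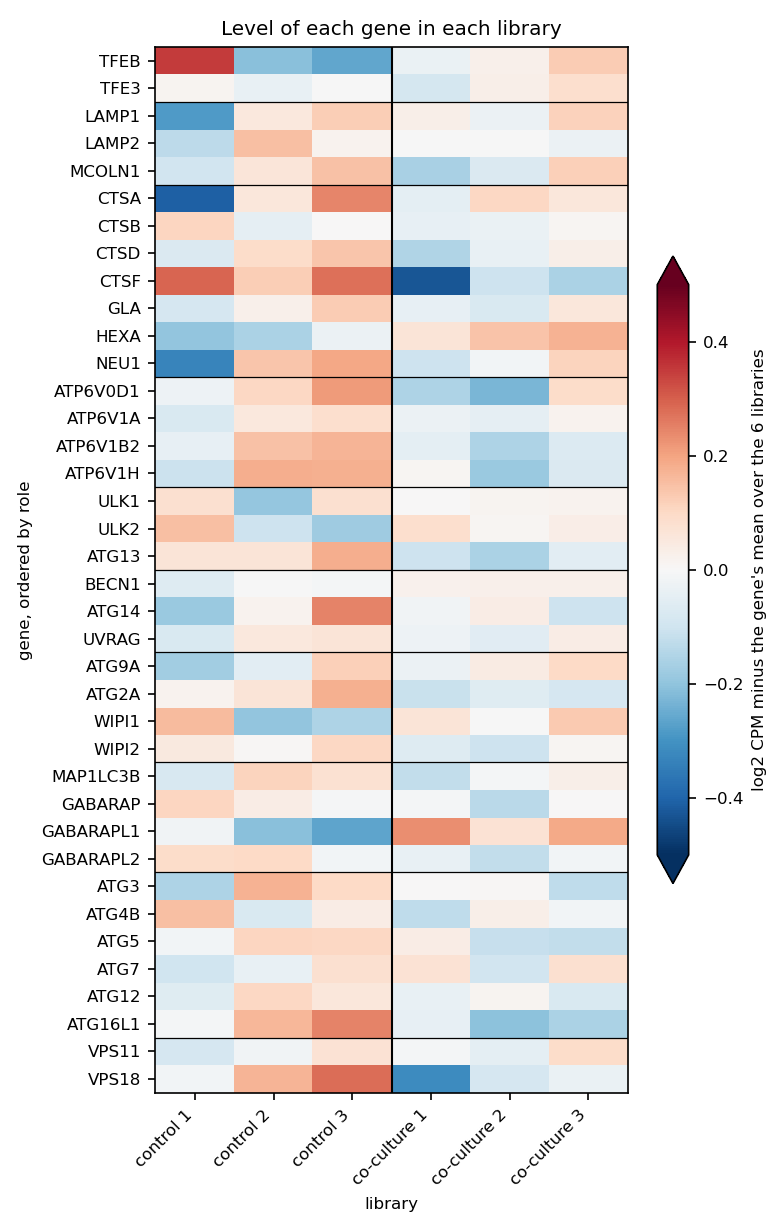
Level of each of the 38 genes (rows, ordered by role) in each of the 6 libraries (columns), as log2 CPM minus the gene's mean over the libraries. LAMP1, CTSA and NEU1 were low in control 1 (113, 43.7 and 81.8 CPM), and GABARAPL1 and HEXA were higher in each co-culture library than in each control.

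All 4 V-ATPase subunits had negative log2 fold changes, from -0.19 to -0.04, and 0 of 4 passed in edgeR, with 1 at an unadjusted p under 0.05. The direction was not shared by the 16 other V-ATPase subunits tested, of which 8 were positive and 8 negative. ATP6V0D1, a subunit of the membrane sector, had 63.0, 68.9 and 74.2 CPM in the controls and 57.6, 54.7 and 68.2 CPM in co-culture. Its groups overlapped through co-culture library 3, and the log2 fold change was -0.19 (edgeR adjusted p 0.251, SE 0.09). ATP6V1B2, a nucleotide-binding subunit of the catalytic sector, was lower in each co-culture library than in each control, at 80.5 ± 3.04 against 91.4 ± 7.16 CPM (SD, n = 3 each) and a log2 fold change of -0.18 (edgeR adjusted p 0.146, SE 0.07). The other nucleotide-binding subunit, ATP6V1A, had a log2 fold change of -0.04 (SE 0.06), and ATP6V1H, a regulatory subunit, one of -0.17 (SE 0.09). Without control 1, ATP6V1B2 and ATP6V1H passed as lower (-0.25 and -0.26, edgeR adjusted p 0.00383 and 0.0115).

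In the ULK complex, the scaffold ATG13 was lower in each co-culture library, and the kinases were not. ATG13 had 98.0, 97.9 and 106 CPM in the controls and 87.3, 83.8 and 90.3 CPM in co-culture, and its groups did not overlap. Its log2 fold change was -0.21 (SE 0.06, 95% interval -0.34 to -0.07), but it did not pass over all genes (edgeR adjusted p 0.0757). With total counts as scaling it passed (-0.24, edgeR adjusted p 0.0355), as it did without control 1 (-0.23, 0.00775). ULK1, the main initiating kinase, had 86.7, 71.7 and 86.8 CPM in the controls and 82.2, 82.8 and 83.0 CPM in co-culture. Its co-culture values lay within the range of the controls, and its log2 fold change was 0.02 (SE 0.08, 95% interval -0.15 to 0.18, edgeR adjusted p 0.927). The related kinase ULK2 stood at 176 ± 21.6 CPM in the controls and 186 ± 4.92 CPM in co-culture (SD, n = 3 each).

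The class III PI3K complex, the lipid kinase assembly of nucleation, held no called gene. BECN1, its core scaffold, had 107, 111 and 110 CPM in the controls and 113 CPM in each co-culture library. Each co-culture library was above each control by a narrow margin, and BECN1 did not pass (log2 fold change 0.05, SE 0.05, 95% interval -0.07 to 0.17, edgeR adjusted p 0.610). ATG14, which directs the complex to the autophagosome site, had 24.7, 28.4 and 33.4 CPM in the controls and 27.8, 28.8 and 26.2 CPM in co-culture, the controls spreading wider on both sides (-0.07 on the log2 scale, SE 0.10, edgeR adjusted p 0.726). UVRAG, the subunit of a second form that acts at endosomes, had a log2 fold change of -0.03 (SE 0.08). None of the 3 genes had an unadjusted p under 0.05.

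Of the genes for membrane supply, ATG2A, a lipid transfer protein, had 43.1, 44.5 and 48.1 CPM in the controls and 39.5, 40.9 and 40.2 CPM in co-culture. Its groups did not overlap, and its log2 fold change was -0.17 (edgeR adjusted p 0.159, SE 0.07). ATG9A, the transmembrane scramblase carried on vesicles, and the phosphoinositide-binding proteins WIPI1 and WIPI2 had log2 fold changes of 0.07 (SE 0.08), 0.13 (SE 0.10) and -0.11 (SE 0.06) in that order. None of the 4 genes was called in edgeR, and ATG2A was the 1 with an unadjusted p under 0.05.

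Of the 4 ATG8 genes, GABARAPL1 rose and the others were not called. GABARAPL1 had 91.4, 80.1 and 77.2 CPM in the controls and 109, 97.3 and 106 CPM in co-culture. Each co-culture library was above each control. GABARAPL1 rose from 82.9 ± 7.53 to 104 ± 5.95 CPM (SD, n = 3 each), or by 0.33 on the log2 scale (SE 0.08, 95% interval 0.16 to 0.49, edgeR adjusted p 0.0353). Its call was kept without control 1 (0.40, edgeR adjusted p 0.000132) and lost without any other library (co-culture 1, 2 or 3, control 2 or control 3), at log2 fold changes from 0.28 to 0.37 and edgeR adjusted p from 0.0571 to 0.166. It was also lost with total counts as scaling (0.29, edgeR adjusted p 0.0590).

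The other ATG8 genes had small negative log2 fold changes and were not called. GABARAP had 233, 222 and 215 CPM in the controls and 215, 197 and 216 CPM in co-culture (-0.09 on the log2 scale, SE 0.06, edgeR adjusted p 0.406). GABARAPL2 had 107, 108 and 99.7 CPM in the controls and 98.1, 92.5 and 99.8 CPM in co-culture (-0.12, SE 0.06, edgeR adjusted p 0.277). MAP1LC3B, the gene of the autophagosome marker LC3B, had 101, 115 and 113 CPM in the controls and 98.0, 106 and 109 CPM in co-culture (-0.07, SE 0.07, edgeR adjusted p 0.568). The groups of all 3 genes overlapped. Per kilobase of transcript, GABARAPL1 made up 14.0%, 12.5% and 12.6% of the summed level of the 4 genes in the controls and 17.3%, 16.5% and 16.5% in co-culture. MAP1LC3B2 and GABARAPL3 are near-identical copies of MAP1LC3B and GABARAPL1. Reads that map to several places stand in a summary line of the counts and not under a gene (6.48% to 8.42% of reads per library). Reads that fit both copies were thus left out, so these levels are uncertain.

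**Figure D3:**
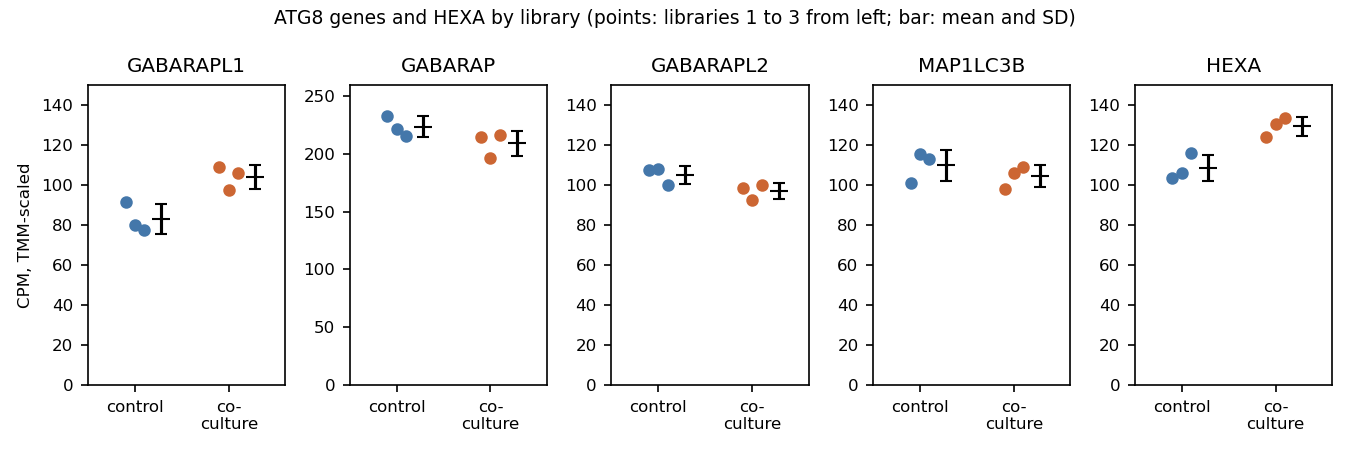
CPM (y axis, from 0; GABARAP has its own scale) of the ATG8 genes and HEXA in each library, points in the order of libraries 1 to 3, with the mean and SD of each group (n = 3). The co-culture points of GABARAPL1 (97.3 to 109 CPM) lie above its controls (77.2 to 91.4 CPM), while the groups of GABARAP, GABARAPL2 and MAP1LC3B overlap.

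Of the 6 genes of the conjugation machinery, 0 passed in edgeR and 1, ATG16L1, had an unadjusted p under 0.05. ATG16L1, which positions the conjugating complex on the membrane, had 38.8, 43.8 and 46.4 CPM in the controls and 37.9, 33.8 and 34.9 CPM in co-culture. The groups did not overlap, although control 1 and co-culture library 1 nearly met. Its log2 fold change was -0.28 (SE 0.08, 95% interval -0.46 to -0.10, edgeR adjusted p 0.0791), and it passed with total counts (-0.31, edgeR adjusted p 0.0449) and without control 1 (-0.35, 0.00229). Its partners ATG5 and ATG12, which are joined to each other, had log2 fold changes of -0.13 and -0.07 (SE 0.07 for both). The E2-like enzyme ATG3, the E1-like enzyme ATG7 and the protease ATG4B, which trims ATG8 proteins, had log2 fold changes of -0.09 (SE 0.09), 0.04 (SE 0.08) and -0.08 (SE 0.08) in that order. For ATG7, 49.1% of the reads over the gene lay on the opposite strand and were not counted here.

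VPS18 and VPS11 belong to the core shared by the HOPS and CORVET tethering complexes, which bring vesicles to endosomes and lysosomes for fusion. VPS18 had 33.5, 38.1 and 41.0 CPM in the controls and 27.2, 31.9 and 33.1 CPM in co-culture. Its groups were separated only by the narrow gap between control 1 and co-culture library 3, and it did not pass (log2 fold change -0.29, SE 0.10, 95% interval -0.50 to -0.07, edgeR adjusted p 0.110). VPS11 ranged from 25.9 to 28.9 CPM in the controls and from 26.6 to 29.3 CPM in co-culture, with a log2 fold change of 0.02 (SE 0.08).

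Set against their promoters, 0 of the 10 genes with an E-box and 1 of the 20 without were called in edgeR, beside 4.83% of all tested genes, so the numbers are too small to tell these sets apart from each other or from the background. The 10 genes with CACGTG (LAMP1, MCOLN1, CTSA, CTSD, CTSF, NEU1, ATP6V0D1, ATG3, ATG14 and VPS11) had a median log2 fold change of -0.07 and a range from -0.45 to 0.06. The 20 genes with a window and no CACGTG had a median of -0.06 and a range from -0.28 to 0.33, with GABARAPL1 as the called gene among them. HEXA, the other called gene, has no promoter window here. Without control 1, CTSF and CTSD, both with CACGTG, passed as lower (edgeR adjusted p 0.0330 and 0.0441). In that fit ATG13, ATG2A, ATG5 and ATG16L1, with a window and no CACGTG, also passed as lower. ULK2 and GABARAPL1, likewise without CACGTG, passed as higher. Over all genes 10.3% were then called lower and 10.6% higher. LAMP1, with the most matches, and CTSA, MCOLN1, CTSD and ATP6V0D1, whose stretches are printed above, had log2 fold changes of 0.06, 0.05, -0.07, -0.11 and -0.19. A match is a description of the letters in the window and not a measured binding site.

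Levels per kilobase of the principal GENCODE transcript, the scale on which genes can be compared, spread widely. GABARAP was highest, at 137 ± 5.54 CPM per kilobase in the controls (SD, n = 3), followed by GABARAPL2 at 105 ± 4.54. CTSD and GLA came next at 82.9 ± 6.28 and 82.4 ± 6.04, which do not differ beyond their spread. LAMP2 stood at 65.6 ± 6.29, and BECN1, NEU1, LAMP1 and WIPI2 lay together between 49.5 and 51.8 CPM per kilobase. GABARAPL1 and MAP1LC3B followed at 42.4 ± 3.85 and 40.8 ± 2.85, again within their spread, and in co-culture GABARAPL1 was at 53.1 ± 3.04 and MAP1LC3B at 38.8 ± 2.08. The lowest were ATG7 at 5.63 ± 0.360, CTSF at 4.12 ± 0.261 and TFEB at 2.44 ± 0.604 CPM per kilobase, while TFE3 was at 20.8 ± 0.360.

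The calls among the 38 genes moved with single libraries in both directions. Without control 1, both reported calls were kept and others were added: 12 of the 38 genes passed in edgeR (31.6%), beside 20.8% of all tested genes. The 3 higher genes were GABARAPL1, HEXA and ULK2, beside 10.6% of all genes called higher. The 9 lower genes were CTSD, CTSF, ATP6V1B2, ATP6V1H, ATG13, ATG2A, ATG5, ATG16L1 and VPS18, beside 10.3% of all genes called lower, with log2 fold changes from -0.42 (CTSF) to -0.17 (CTSD). Without co-culture library 1, 2 or 3 or control 2, 0 of the 38 genes passed in edgeR, beside 0.831%, 0.503%, 2.18% and 0.44% of all genes. In these fits 18.4%, 15.8%, 21.1% and 18.4% of the 38 had an unadjusted p under 0.05. The shares of all genes were 16%, 14.7%, 20.4% and 16.6%. Without control 3, HEXA alone passed (2.63%), beside 5.0% of all genes. With the class of opposite-strand reads as a batch term, where all controls share a class with co-culture library 1 alone, 0 of the 38 genes passed in edgeR, beside 0.199% of all genes. In that fit 3 of the 38 had an unadjusted p under 0.05, which is 7.89% beside 12.5% of all genes. The log2 fold change was 0.19 for HEXA and 0.39 for GABARAPL1 (edgeR adjusted p 0.446 and 0.234).

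**Figure D4:**
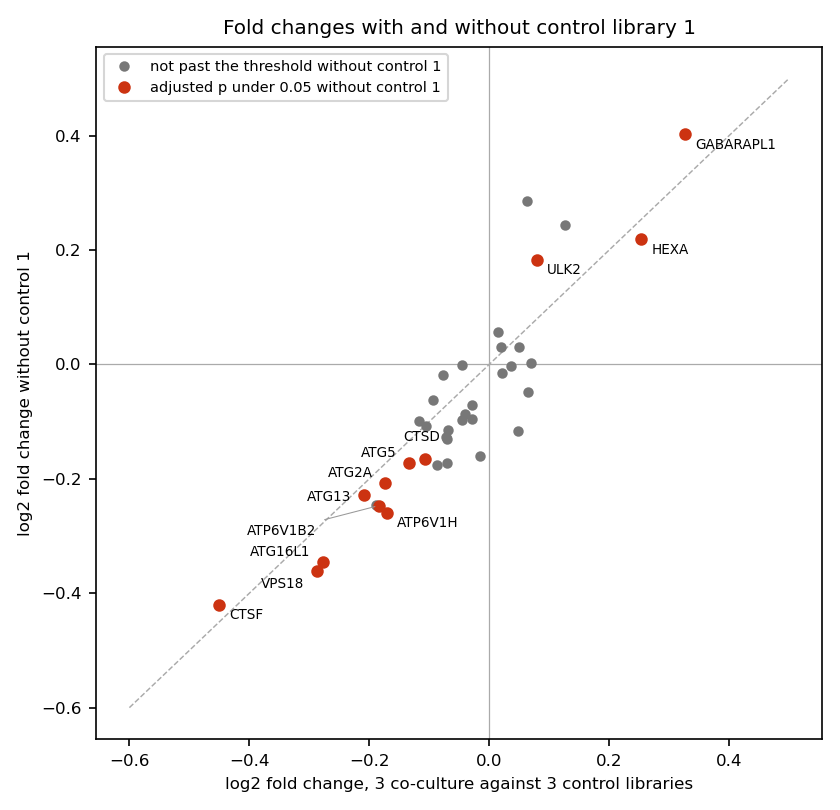
Log2 fold change of the 38 genes with all 6 libraries (x axis) and without control 1 (y axis), the dashed line marking equal values. The 12 genes in red passed without control 1, from CTSF (-0.42) to GABARAPL1 (0.40).

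Other genes of the pathway were read from the same fit in 7 lists of 160 genes, of which 156 were tested. Of these, 3 were called higher and 6 lower, 5.77% beside 4.83% of all genes, and the median log2 fold change was -0.05. At an unadjusted p under 0.05 there were 34 of the 156, which is 21.8% beside 23.2% of all genes. The groups did not overlap for 44 of the 156, which is 28.2% beside 29.3% of all genes. The lists showed scattered single genes: of 39 other hydrolases and activators 1 rose and 1 fell (median -0.03), of 20 other lysosomal membrane proteins 2 rose and 0 fell (median -0.06), of 27 other core autophagy genes 0 rose and 2 fell (median 0.00), of 18 cargo receptors and mitophagy genes 0 rose and 2 fell (median -0.05), and of 28 genes of mTORC1 and lysosomal nutrient sensing 0 rose and 1 fell (median -0.10).

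IDS, the iduronate sulfatase that degrades glycosaminoglycans, had the lowest adjusted p of the 156 genes. It had 129, 119 and 114 CPM in the controls and 178, 174 and 176 CPM in co-culture, with a wide gap between the groups. IDS rose by 0.54 on the log2 scale (edgeR adjusted p 0.00143, SE 0.06), and it passed without any single library. It missed the threshold only with the batch term, at 0.56 (edgeR adjusted p 0.0586). A pseudogene of IDS is near-identical in part, and reads that map to both were not counted, so the level of IDS is uncertain. NAGLU, another glycosaminoglycan-degrading enzyme, fell from 50.0, 48.2 and 49.1 CPM to 40.6, 40.8 and 41.6 CPM (-0.26 on the log2 scale, SE 0.06, edgeR adjusted p 0.0405).

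TPCN1, an endolysosomal cation channel, rose from 20.9, 18.0 and 20.1 CPM to 25.9, 27.0 and 25.3 CPM (0.40 on the log2 scale, SE 0.08, edgeR adjusted p 0.0234). LAPTM4B, a lysosomal transmembrane protein, rose from 254, 274 and 278 CPM to 319, 325 and 330 CPM (0.27, SE 0.06, edgeR adjusted p 0.0313). In both genes each co-culture library was above each control. ATG101, the partner of ATG13 in the ULK complex, fell from 31.5, 32.6 and 33.5 CPM to 23.3, 23.2 and 26.1 CPM (-0.42, SE 0.08, edgeR adjusted p 0.0157). AMBRA1, a regulator of BECN1 and ULK1, fell from 54.4, 55.1 and 54.2 CPM to 43.8, 45.7 and 46.4 CPM (-0.27, SE 0.06, edgeR adjusted p 0.0345). The controls of both genes lay within a narrow range above all co-culture libraries.

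TOLLIP, an adaptor that binds ubiquitin and ATG8 proteins, fell from 31.2, 33.2 and 32.7 CPM to 23.6, 23.4 and 25.1 CPM (-0.43, SE 0.07, edgeR adjusted p 0.0103). PINK1, the kinase that flags damaged mitochondria for autophagy, fell from 114, 108 and 104 CPM to 90.6, 91.1 and 92.0 CPM (-0.25, SE 0.06, edgeR adjusted p 0.0345), with 8.92% of its reads on the opposite strand. MLST8, a subunit of the mTOR complexes, fell from 66.8, 70.7 and 74.8 CPM to 51.0, 57.4 and 60.5 CPM (-0.33, SE 0.08, edgeR adjusted p 0.0384). The groups of these 3 genes did not overlap. Leaving out single libraries ended every one of these calls other than that of IDS: each was lost without co-culture library 1, without co-culture library 2 and without control 2, and all but those of ATG101 and TOLLIP also without co-culture library 3. NAGLU, AMBRA1 and MLST8 lost theirs without control 3 too. The batch term for opposite-strand reads also ended all 8 calls (edgeR adjusted p from 0.162 to 0.323). With reads of both strands counted, NAGLU, PINK1 and MLST8 missed the threshold (-0.25, -0.21 and -0.31 on the log2 scale, edgeR adjusted p 0.0515, 0.0701 and 0.0610). All 8 kept their calls without control 1. Where leaving out a library lost a call, the log2 fold changes of the lower genes stayed between -0.42 and -0.24. Those of the higher genes then stayed between 0.26 and 0.43. With the batch term the lower genes ran from -0.48 (ATG101) to -0.26 (PINK1), and LAPTM4B and TPCN1 were at 0.25 and 0.40.

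No gene was called in edgeR among the 16 other V-ATPase subunits (median -0.04) or the 8 other HOPS and CORVET subunits (median 0.03). In that fit each list held 2 genes at an unadjusted p under 0.05, which is 12.5% and 25% beside 23.2% of all genes. The lowest unadjusted p in these lists belonged to ATP6V0E1 (-0.15 on the log2 scale, SE 0.06, edgeR adjusted p 0.131) and TGFBRAP1 (-0.23, SE 0.08, edgeR adjusted p 0.119).

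**Figure D5:**
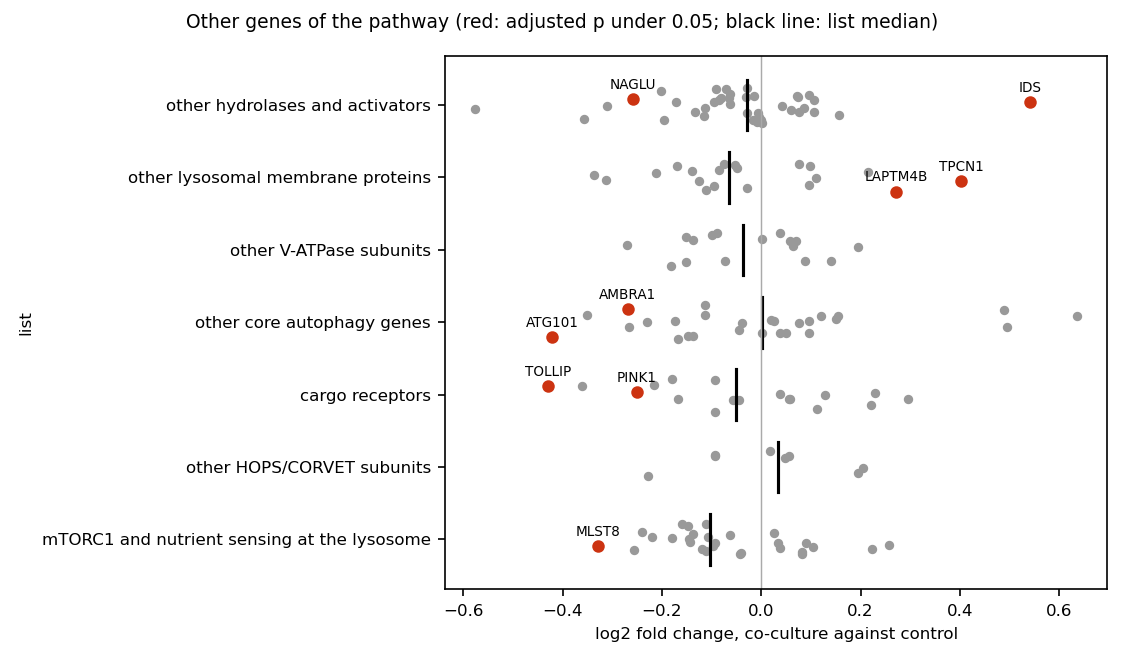
Log2 fold change (x axis) of the 156 tested genes of the 7 pathway lists (y axis), with the list median as a black line and genes at an adjusted p under 0.05 in red and named. The 3 higher genes (IDS, TPCN1 and LAPTM4B) and the 6 lower genes are spread over 5 lists.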

How the data were processed

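The labels' protocols name a stranded mRNA kit. What the authors deposited are unnormalized counts per gene, laid out as STAR's gene counts. The submitters' processing notes name FastQC, STAR 2.53a and the build hg18, and the annotation is not given in the sources used here. The reverse-strand counts of the authors were used, without the 4 summary lines. Within groups, the chi-square per degree of freedom over genes was 4.73 to 18.5 for each pair of libraries, so each library was counted once.

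Genes were filtered with filterByExpr (minimum count 10), scaled by TMM and tested with the robust quasi-likelihood test of edgeR 4.0.16 in R 4.3.3. The model held the group alone, with Benjamini-Hochberg adjustment. Each SE was derived from the log2 fold change and its F statistic, and 95% intervals use the test's degrees of freedom. DESeq2 1.42.0 and limma 3.58.1 were alternatives. The scripts were tested on simulated data. Library size and its TMM factor alone set the value of 1 read in CPM, and reads carried no recorded molecular identifiers.

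Transcript lengths (GENCODE 29, principal transcript) and promoters (RefSeq, GRCh38.p14) come from another build than hg18 and serve only for length and sequence. Of the 160 pathway genes, 7 were found under an older symbol. The genes, lists and roles were chosen with earlier results of these data known. All 38 genes are named. Values per library are given for called genes, for the gene of largest absolute log2 fold change in each role, and for TFEB, TFE3, LAMP1, CTSD, ULK1, BECN1 and the ATG8 genes. Of each pathway list the called genes are named, up to 4, or else the gene of lowest p. Similarity of ATG8 protein sequences was not analysed here. Of the HEK293 marker genes, 1 is not reported here and was left out of their sum.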

Additional observations from a re-analysis of the deposited data

How the results depend on the processing

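The reported counts were 704 genes in all, 2 higher and 0 lower among the 38 genes, and 3 higher and 6 lower among the pathway lists. DESeq2 called 5 pathway genes higher, beside 7.52% of all genes with an adjusted p (4.83% in the reported fit). Total counts as scaling gave 1 higher and 2 lower of the 38 and 11 lower pathway genes, beside 6.05% of all genes. Counts without regard to strand gave 3 lower pathway genes, beside 4.46%. A batch term for the class of opposite-strand reads left 29 genes, 0 of the 38 and 0 pathway genes higher or lower called in edgeR, with 3 and 21 at an unadjusted p under 0.05, beside 12.5% of all genes. Leaving out single libraries gave from 65 to 3069 genes, from 0 to 3 higher and from 0 to 9 lower of the 38, and from 1 to 12 higher and from 0 to 26 lower pathway genes, the highest values all without control 1. The cause was not tested. The same-numbered libraries did not deviate together (correlations -0.04, -0.09 and -0.09), so the numbers were not taken to pair them. With the replicate block in edgeR, 164 genes, 0 of the 38 genes and 1 higher and 0 lower pathway genes were called, beside 1.12% of all genes, with 8 and 29 at an unadjusted p under 0.05, beside 19.2% of all genes. The 15 settings gave 570 fold changes of the 38 genes, of which 23 had another sign than reported, all of them for genes not called in either fit. The promoter counts were 10 and 8 also in the 250 bases before the start.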
